A study of Mus musculus with 2 samples.

Results

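Inhibitory checkpoint receptors were examined as 10 genes out of 32285 in the matrix: Pdcd1, Havcr2, Lag3, Tigit, Ctla4, Cd244a, Cd160, Entpd1, Btla and Cd200. They were chosen by name as the inhibitory receptors, and closely linked surface proteins, usually read on exhausted T cells. The rule uses no measured value, but earlier results of these data were known when the members were chosen. T cells came from melanoma tumours of C57BL/6J mice given Lactobacillus reuteri, a gut bacterium (LR, 4 mice), or phosphate-buffered saline (PBS, 4 mice; the treatment label calls them untreated). Suspensions were enriched for CD90.2, each mouse was given its own hashtag antibody, and live CD8+ cells were sorted, the same number from each animal. Sorted cells of a condition were combined before all 8 mice were loaded on 1 lane of the Chromium 5' v2 platform, so handling of the combined tubes and treatment cannot be told apart. The labels name no transgene, tumour line, age or sex, and no antibody to PD-L1 is named for these cells, although the series title speaks of that therapy.

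Inhibitory receptors are switched on when a T cell is activated and dampen signalling from the T cell receptor and CD28. PD-1 (Pdcd1) recruits the phosphatase SHP-2, CTLA-4 (Ctla4) competes with CD28 for CD80 and CD86, TIGIT (Tigit) competes with CD226 for CD155, TIM-3 (Havcr2) binds galectin-9 and CEACAM1, and LAG-3 (Lag3) binds MHC class II. In tumours, CD8 T cells that meet antigen for long hold several of these receptors at the same time, a state called exhaustion, while regulatory T cells carry CTLA-4 and TIGIT as part of their normal programme. 2B4 (Cd244a) and CD160 are receptors shared with natural killer cells, BTLA (Btla) and CD160 both bind HVEM, CD39 (Entpd1) is an enzyme that breaks down extracellular ATP on the way to adenosine, and CD200 (Cd200) is a ligand of the inhibitory receptor CD200R1.

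All 10 symbols matched a protein-coding gene of GENCODE M21 on GRCm38 by identifier. Pdcd1 lies at chr1:94038305-94052553 on the minus strand, Ctla4 at chr1:60887000-60915832 and Cd244a at chr1:171559193-171609746, both on the plus strand. Chromosome 16 holds Tigit (chr16:43648867-43664146, minus), Btla (chr16:45224315-45257670, plus) and Cd200 (chr16:45382135-45409053, minus). The remaining members are Havcr2 (chr11:46454935-46481255, plus), Lag3 (chr6:124904361-124911705, minus), Cd160 (chr3:96798763-96829351, minus) and Entpd1 (chr19:40612366-40741602, plus). For 9 of the 10 members a RefSeq promoter on GRCm38.p6 was at hand, in 11 entries because Cd160 and Entpd1 have more than 1 start; for Lag3 there was none. The 250 bases before the start are printed for 3 of the receptors that were most often detected together in CD8 cells (Pdcd1, Havcr2 and Tigit) and for Ctla4, the receptor that stood highest in Foxp3-positive cells over the other gates. Capitals mark matches to any of 3 short motifs, searched on both strands: the NFAT core GGAAA, the AP-1 motif TGANTCA and the core GCGTG that the aryl hydrocarbon receptor recognises.
Pdcd1, chr1:94052554-94052803, minus strand: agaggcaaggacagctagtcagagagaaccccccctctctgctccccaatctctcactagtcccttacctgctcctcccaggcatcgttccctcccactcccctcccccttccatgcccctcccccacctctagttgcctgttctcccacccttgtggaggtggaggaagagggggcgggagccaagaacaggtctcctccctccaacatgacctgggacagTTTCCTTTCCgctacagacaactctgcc
Havcr2, chr11:46454681-46454930, plus strand: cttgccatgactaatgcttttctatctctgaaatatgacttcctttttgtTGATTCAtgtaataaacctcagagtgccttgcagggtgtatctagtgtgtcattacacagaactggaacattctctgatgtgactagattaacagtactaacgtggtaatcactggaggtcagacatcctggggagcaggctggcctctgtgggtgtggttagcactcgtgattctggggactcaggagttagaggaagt
Tigit, chr16:43664185-43664434, minus strand: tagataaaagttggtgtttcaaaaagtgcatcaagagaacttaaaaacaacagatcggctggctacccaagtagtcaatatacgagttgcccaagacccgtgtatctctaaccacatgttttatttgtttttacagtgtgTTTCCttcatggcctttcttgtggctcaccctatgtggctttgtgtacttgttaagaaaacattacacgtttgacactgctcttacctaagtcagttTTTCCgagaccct
Ctla4, chr1:60908775-60909024, plus strand: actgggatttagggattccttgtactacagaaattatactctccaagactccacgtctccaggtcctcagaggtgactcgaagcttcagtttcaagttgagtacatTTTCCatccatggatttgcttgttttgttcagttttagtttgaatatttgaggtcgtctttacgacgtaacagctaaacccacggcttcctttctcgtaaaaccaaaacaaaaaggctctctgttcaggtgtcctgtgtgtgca
The Pdcd1 window held 2 NFAT cores side by side, Tigit 2, Ctla4 1 and Havcr2 none, while Havcr2 held 1 AP-1 match. Of the 11 entries, 6 held an NFAT core, 2 an AP-1 match (Havcr2 and Cd244a) and 1 the GCGTG core (the first entry of Entpd1). Over all 32851 promoter windows of this length, 55.6% held the NFAT core, 6.75% the AP-1 motif and 28.2% the GCGTG core. A match is a run of letters, not a shown binding site, and the Ctla4 window lies inside the span of longer annotated transcripts of that gene.

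After filters and removal of barcodes with several hashtags or marked as doublets, 10406 of 16969 barcodes remained, with a median of 3272.5 UMIs (unique molecular identifiers, each 1 captured RNA molecule) and 479 to 2586 cells per mouse. Cells were gated on lineage genes that are no members: CD8 (at least 1 UMI of Cd8a or Cd8b1 with Cd4 absent, 6030 cells), CD4 (a Cd4 UMI and no Foxp3 UMI, 1827 cells) and Foxp3-positive (794 cells). The T cell list (Cd3d, Cd3e, Cd3g, Trac) was detected in full in all 3 gates, at 2604.8 to 3878 CPM (a gene's UMIs per 1000000 UMIs of the same mouse and gate). Although the sort was for CD8, the CD4 and Foxp3-positive gates held cells of every mouse. A Cd8a or Cd8b1 UMI was also present in 504 of the CD4-gate cells and 297 of the Foxp3-positive cells. In all, 128 cells met both the CD8 and the Foxp3-positive rule, and they stayed in both gates unless said otherwise. They were uneven over mice: without them LR mouse 1 fell from 41 to 19 Foxp3-positive cells and LR mouse 2 from 148 to 133. Myeloid marker sums were 131 to 384 CPM in the CD8 gate with 8 of 8 genes detected, and melanoma markers were at most 2.02 CPM in the CD8, 5.59 CPM in the CD4 and 5.12 CPM in the Foxp3-positive gate. The regulatory T list (Foxp3, Il2ra, Ikzf2, Ikzf4, Ctla4, Tnfrsf18), which holds the member Ctla4, summed to 273 to 1139 CPM in the CD4 gate. There 5 of its 6 genes were detected, Foxp3 being absent by the rule. In the Foxp3-positive gate the sum was 2665 to 3775 CPM. The part of regulatory T cells without a Foxp3 UMI in the CD4-gate values was not tested. A gate's CPM moves both with the share of cells that hold a gene and with the UMIs per such cell.

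CD8 cells carried more of most checkpoint receptors than the CD4 cells of the same tumours: 7 of 10 members were higher and 2 lower. PD-1, TIM-3, LAG-3, TIGIT, 2B4, CD160 and CD39 transcripts were on the CD8 side, in all 8 mice for each of these genes. BTLA and CD200 transcripts were on the CD4 side, and CTLA-4 transcripts lay close in both gates. Havcr2, Cd244a, Cd160 and Entpd1 did not pass the count filter within CD4 cells alone and entered this test through CD8 cells, where they are high, so their part of the count is a description. Over all 9106 genes tested in this comparison 28.6% were called, 15.8% higher and 12.8% lower in CD8 cells (edgeR's quasi-likelihood test with mouse as a block, Benjamini-Hochberg adjusted p of 0.05 or less). With library totals in place of TMM scaling the 1442 higher and 1166 lower genes became 1060 and 1612.

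Pdcd1 was at 254, 462, 479 and 499 CPM in the CD8 cells of LR mice 1 to 4 and at 534, 102, 217 and 241 CPM in those of PBS mice 6 to 9. In the CD4 cells of the same mice it was at 115, 229, 279 and 356 CPM, and at 262, 40.6, 86.8 and 127 CPM. Mice with much Pdcd1 in one gate thus also had much in the other, and within every mouse the CD8 value was the higher. The log2 ratio of CD8 to CD4 was 1.07 ± 0.09 (SE, 8 mice; adjusted p = 2.20e-09). Havcr2 averaged 91.7 ± 50.2 CPM (SD, 8 mice) in CD8 cells and 21.4 ± 12.4 CPM in CD4 cells, a log2 ratio of 2.04 ± 0.14. Lag3 averaged 188 ± 95.8 against 65.3 ± 36.6 CPM, a log2 ratio of 1.56 ± 0.12. Tigit was the least unequal of the 7, at 316 ± 160.5 against 206 ± 154 CPM, with a log2 ratio of 0.81 ± 0.09 (adjusted p = 6.97e-07).

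The receptors shared with natural killer cells were also on the CD8 side. Cd160 averaged 81.3 ± 21.6 CPM in CD8 cells and 15.1 ± 7.24 CPM in CD4 cells, with a log2 ratio of 2.65 ± 0.18. Cd244a averaged 19.8 ± 9.90 against 4.62 ± 4.39 CPM, with a log2 ratio of 2.46 ± 0.29, from only 15 UMIs in the CD4 gate. Natural killer markers were low in both gates: the sum of 6 genes, with Eomes, which activated CD8 cells also express, among them, was 67.7 to 191 CPM in CD8 and 21.2 to 88.4 CPM in CD4 cells, and their part in the Cd160 and Cd244a differences was not tested. The ectoenzyme gene Entpd1 was at 39.2 ± 16.6 against 20.3 ± 13.7 CPM, a log2 ratio of 1.03 ± 0.17.

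Btla was higher in CD4 cells in each of the 8 mice, at 20.9 ± 5.97 CPM there and 8.53 ± 2.18 CPM in CD8 cells (log2 ratio -1.14 ± 0.20, adjusted p = 0.000185). Cd200 was at 19.7 ± 7.26 and 12.05 ± 4.55 CPM (log2 ratio -0.71 ± 0.21, adjusted p = 0.0145), and higher in CD4 cells in 7 mice; without PBS mouse 7 its adjusted p was 0.0686. Ctla4 was at 189 ± 89.1 CPM in CD8 and 233 ± 137 CPM in CD4 cells (log2 ratio -0.21 ± 0.09, adjusted p = 0.0828). That Ctla4 difference passed the threshold, with more in CD4 cells, with library totals (-0.28), with stricter gates (-0.44) and without LR mouse 1 or LR mouse 2 (-0.27 and -0.30).

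**Figure D1:**
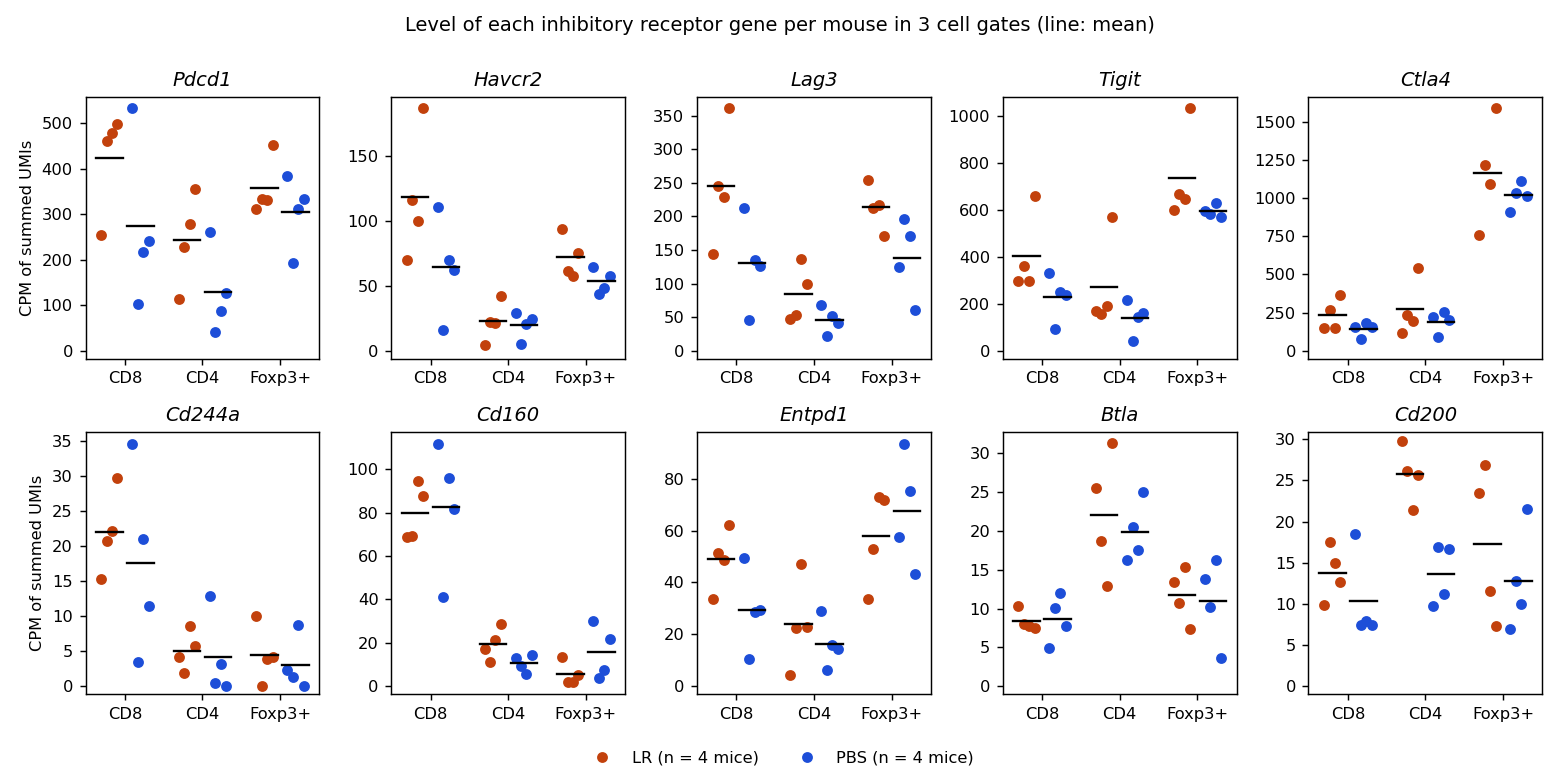
Level of each of the 10 genes in CPM (vertical axis, linear, a separate scale per gene) in the CD8, CD4 and Foxp3-positive gates; each point is a mouse (LR orange, PBS blue) and each line the mean of 4 mice. Ctla4 and Tigit stand highest in Foxp3-positive cells, Cd160 and Cd244a in CD8 cells and Btla in CD4 cells, and PBS mouse 7 (second blue point) is the lowest of the CD8 values for Pdcd1, Havcr2, Lag3, Tigit and Ctla4.

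Foxp3-positive cells carried more of every receptor that could be tested than the CD4 cells. The 128 cells that also met the CD8 rule were kept in. Here 6 of 6 tested members were higher, in all 8 mice for each. Havcr2 and Entpd1 did not pass the count filter within CD4 cells alone. They entered this test through Foxp3-positive cells, where they are high, so their part of the count is a description. Cd244a, Cd160, Btla and Cd200 had too few UMIs and were left out by the filter. This stands against a background in which 49% of 6062 genes were called (23.9% higher, 25.1% lower), so a call by itself says little here; with library totals the 1448 higher and 1524 lower genes became 1749 and 1213. Ctla4 showed the largest difference of the 6. It was at 761, 1220.0, 1092 and 1589 CPM in the Foxp3-positive cells of LR mice 1 to 4 and at 908, 1036, 1111 and 1014 CPM in those of PBS mice 6 to 9, and the highest Ctla4 value in any CD4 gate was 544 CPM. The log2 ratio of Foxp3-positive to CD4 cells was 2.29 ± 0.14 (adjusted p = 2.42e-09). Tigit followed the same order, at 568 to 1031 CPM in Foxp3-positive cells, with a log2 ratio of 1.88 ± 0.20 (adjusted p = 9.32e-07). The others were Entpd1 (log2 ratio 1.94 ± 0.28), Havcr2 (1.53 ± 0.24), Lag3 (1.53 ± 0.23) and Pdcd1 (0.97 ± 0.18). With stricter gates the values of Havcr2 and Lag3 were 2.49 and 2.44.

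Set against CD8 cells, and with the 128 cells that met both rules left out, Foxp3-positive cells were higher in Ctla4 and Tigit and lower in Havcr2. With Cd160, whose ratio is a description, 4 of 9 tested members were called, where 31.9% of 8551 genes were called (16.3% higher, 15.6% lower). Ctla4 averaged 1170.3 ± 236 CPM in Foxp3-positive and 175 ± 87.1 CPM in CD8 cells, without overlap over the 8 mice (log2 ratio 2.74 ± 0.16, adjusted p = 3.40e-09). Tigit averaged 683 ± 159 against 311 ± 161 CPM (log2 ratio 1.17 ± 0.17, adjusted p = 8.68e-05). Cd160 went the other way in every mouse, at 6.48 ± 7.84 against 82.6 ± 21.9 CPM, with a log2 ratio of -4.11 ± 0.30 that rests on 22 UMIs in the Foxp3-positive cells. Cd160 passed the count filter only through CD8 cells, where it is high, so this ratio is a description. Havcr2 was at 56.0 ± 6.72 against 91.3 ± 49.95 CPM and higher in CD8 cells in 6 of 8 mice (log2 ratio -0.71 ± 0.25, adjusted p = 0.0400). This call was lost with DESeq2 (adjusted p = 0.0792), with library totals and with 3 other settings of cells and gates. It was also lost when any of LR mice 2, 3 and 4 or PBS mice 6 and 8 was left out (adjusted p 0.0848 to 0.136). The stricter gates put the cells that met both rules back in the Foxp3-positive gate, which held 39 cells of LR mouse 1 there, against 19. Pdcd1 (log2 ratio -0.06 ± 0.16), Lag3 (-0.10 ± 0.27), Btla (0.31 ± 0.25) and Cd200 (0.13 ± 0.30) were not called, and Pdcd1 and Lag3 changed sign with library totals (0.06 and 0.01). Entpd1 was at 63.5 ± 19.1 against 38.4 ± 17.1 CPM (log2 ratio 0.76 ± 0.29, adjusted p = 0.0571) and passed with 4 of the other settings and without LR mouse 2 or LR mouse 4, while without PBS mouse 7 its log2 ratio was 0.38. The scaling matters for these small values: with library totals the median log2 ratio over all genes was 0.10, against -0.01 with TMM, and the 1395 higher and 1337 lower genes became 1995 and 941.

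**Figure D2:**
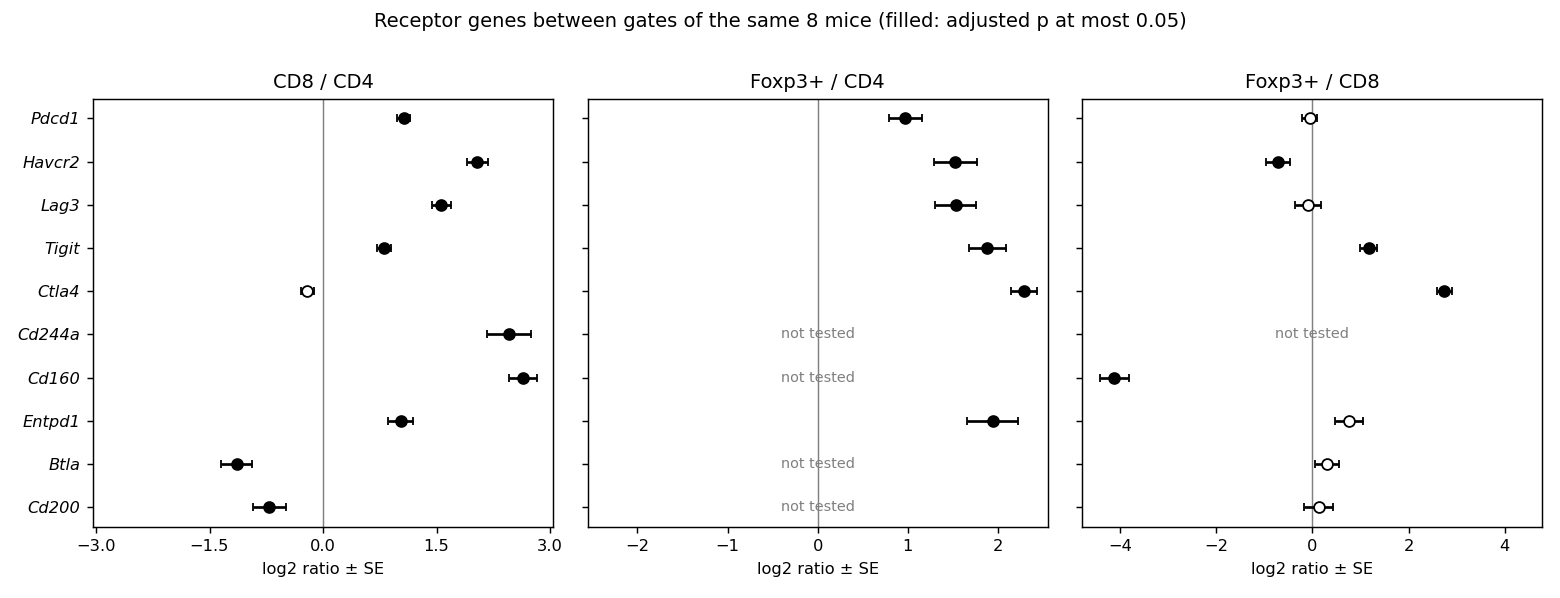
Log2 ratio ± SE (horizontal axis) of the 10 genes (vertical axis) between gates of the same 8 mice, with filled points at an adjusted p of 0.05 or less. CD8 cells exceed CD4 cells in 7 genes and fall below them in Btla and Cd200, and Foxp3-positive cells exceed CD8 cells in Ctla4 (2.74) and Tigit (1.17) and fall far below them in Cd160 (-4.11), a gene that passed the count filter through CD8 cells.

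The order of the 3 gates therefore differed between receptors. For Ctla4 it was Foxp3-positive first, with CD8 and CD4 cells not told apart at this threshold. Tigit went from Foxp3-positive to CD8 to CD4 cells, each step passing its test. For Pdcd1 and Lag3, CD8 and Foxp3-positive cells did not differ beyond their error and both exceeded CD4 cells. Cd160 was higher in CD8 cells than in either other gate, and was not tested between Foxp3-positive and CD4 cells.

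Other genes of these pathways were counted in fixed lists, beside the median of all genes tested (log2 0.00 for CD8 against CD4 and -0.01 for Foxp3-positive against CD8). Among the co-stimulatory counterparts, 3 of 10 were higher and 5 lower in CD8 than in CD4 cells (median log2 -0.21): Tnfrsf9, which encodes 4-1BB, was higher (log2 ratio 1.46 ± 0.11) and Icos lower (-1.26 ± 0.12). In Foxp3-positive against CD8 cells 7 of 10 were higher and 1 lower (median 0.78). The lower gene was Cd226, the activating receptor that competes with TIGIT (log2 ratio -2.74 ± 0.22; 15.5 ± 10.4 against 119.9 ± 42.9 CPM), while Tnfrsf4, encoding OX40, was higher (3.30 ± 0.21). The ratio of the pair thus went opposite ways, with Tigit higher and Cd226 lower in Foxp3-positive cells.

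Of 14 genes of ligands and binding partners, 9 were tested between CD8 and CD4 cells, 4 higher and 1 lower, and 11 between Foxp3-positive and CD8 cells, 3 higher and 1 lower. Cd86, a ligand of CTLA-4 and CD28, was lower in Foxp3-positive than CD8 cells (log2 ratio -1.71 ± 0.22), and the PD-1 ligand genes Pdcd1lg2 (1.31 ± 0.16) and Cd274 (0.54 ± 0.16) were higher. Among the other inhibitory receptors, Klrc1, which encodes NKG2A, was higher in CD8 than CD4 cells (2.27 ± 0.17) and far lower in Foxp3-positive than CD8 cells (-4.85 ± 0.34). The latter ratio is a description, because Klrc1 averaged 5.15 CPM in Foxp3-positive cells and passed the count filter through CD8 cells, where it is high. Klrg1 was higher in Foxp3-positive than CD8 cells (3.88 ± 0.27). That list had 3 of 10 tested genes higher and 2 lower in CD8 against CD4 cells, and 2 of 9 higher and 5 lower in Foxp3-positive against CD8 cells. Of the intracellular signalling genes, 4 of 13 were higher and 3 lower in CD8 against CD4, and 3 higher and 6 lower in Foxp3-positive against CD8 cells; Ptpn6, encoding the phosphatase SHP-1, was among the lower (-0.92 ± 0.10). CD73 (Nt5e), which completes the step to adenosine after CD39, was higher in Foxp3-positive than CD8 cells (1.25 ± 0.25). The transcription factors linked to exhaustion were split, 5 higher and 5 lower of 17 in CD8 against CD4 cells, with Eomes higher (2.20 ± 0.15) and Maf lower (-2.13 ± 0.22).

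Detection per cell was read after thinning every cell to 2000 UMIs, which left 5097 CD8, 1399 CD4 and 686 Foxp3-positive cells and dropped 933, 428 and 108 shallower ones. Cells that met both the CD8 and the Foxp3-positive rule stayed in both gates here and in the joint detection. The CD8 and Foxp3-positive gates thus shared cells in these comparisons. A cell held a mean of 1.41 ± 0.67 of the 10 receptors in the CD8 gate, 0.764 ± 0.254 in the CD4 gate and 2.31 ± 0.30 in the Foxp3-positive gate (SD, 8 mice). Foxp3-positive cells exceeded CD8 cells, and CD8 cells exceeded CD4 cells, in 8 of 8 mice (two-sided exact sign-flip permutation test, p = 0.0078125 for each of 3 pairs, also after adjustment, the smallest this design can give). At least 3 receptors were found in 1023 CD8 cells (20.1%), 74 CD4 cells (5.29%) and 327 Foxp3-positive cells (47.7%), and none in 48.4%, 60.9% and 11.1%. In CD8 cells the most common receptors were Tigit (26.6% of thinned cells, exact 95% interval 25.4 to 27.9%) and Pdcd1 (24.0%), followed by Ctla4 (20.9%), Lag3 (16.4%), Cd160 (10.4%), Havcr2 (9.40%) and Entpd1 (5.40%). Without thinning these shares were 35.3%, 30.4%, 34.5%, 24.1%, 18.7%, 16.7% and 11.3%. Intervals cover counting error only; the share of CD8 cells with Tigit ran from 7.67% to 62.5% over mice.

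Free RNA can add to such shares, and too few myeloid cells (17 thinned) were present to serve as a reference for it. In CD4 cells, at a median depth of 2910.0 UMIs before thinning, Ctla4 was found in 18.7%, Tigit in 13.7%, Pdcd1 in 10.4%, Lag3 in 4.36% and Btla in 3.65%. The lowest shares there were those of Cd160 (1.64%), Havcr2 (1.64%) and Cd244a (0.286%), all below their shares in CD8 cells. In Foxp3-positive cells Ctla4 was found in 74.6% and Tigit in 65.2%, against 37.8% with Pdcd1, 25.5% with Lag3, 12.4% with Entpd1 and 12.2% with Havcr2, at a median depth of 4566.5 UMIs before thinning, against 3703 in CD8 cells.

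**Figure D3:**
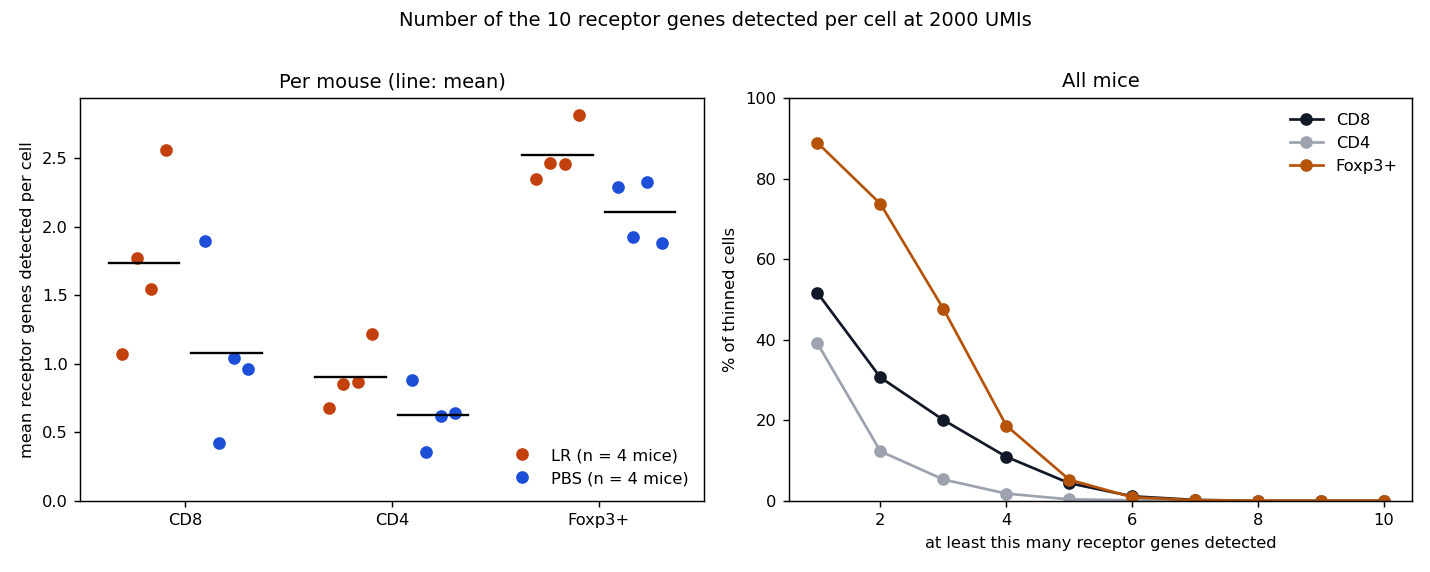
Left, mean number of the 10 genes with a UMI per thinned cell (vertical axis from 0), each point a mouse and each line the mean of 4; right, the percent of thinned cells of all mice with at least the given number of genes. Foxp3-positive cells average 2.31 receptors, CD8 cells 1.41 and CD4 cells 0.764, and in Foxp3-positive cells every LR mouse lies above every PBS mouse.

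The receptors were found together in the same CD8 cells. Of 45 pairs, 40 had at least 5 joint cells to be expected from the single shares within mice, and of these 35 had an odds ratio above 1 and 5 below (Mantel-Haenszel over mice, median 2.47; a description across cells, which share a library). For 23 pairs the odds ratio was above 1 in each of the 8 mice. The odds ratios of single mice had a small constant added to every count, which can lift a pair of rare receptors above 1. This count of pairs is therefore a description. The highest values joined 4 receptors, Pdcd1, Havcr2, Lag3 and Tigit. Pdcd1 and Tigit met in 758 cells against 427 expected (odds ratio 6.50, 3.70 to 12.5 over mice), Pdcd1 and Havcr2 in 335 against 162 (6.44), Pdcd1 and Lag3 in 533 against 279.6 (6.42) and Lag3 and Tigit in 565 against 309 (6.25). Of CD8 cells with Havcr2, 69.9% also held Pdcd1, and of those with Lag3, 63.9% did.

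Entpd1 and Cd244a joined this group less tightly, with odds ratios to Pdcd1 of 4.83 and 4.35 and to each other of 4.70. Ctla4 had odds ratios of 2.38 to 2.65 with Pdcd1, Havcr2, Lag3 and Tigit, and Cd160 of 1.91 to 2.25. All 5 pairs below 1 were pairs with Btla, the lowest with Lag3 (0.56) and Ctla4 (0.56), each resting on no more than 12 joint cells. Havcr2 with Btla was at 1.10. Single mice were mixed: Pdcd1 with Btla ran from 0.097 to 2.35 over mice, and 0 pairs were below 1 in each of the 8 mice. Among the 1224 thinned CD8 cells that held Pdcd1 the median over 29 pairs was 1.42, with 22 above 1 and 7 below; Cd244a with Entpd1 stayed high (3.04), Lag3 with Tigit was at 2.20, and Ctla4 with Cd244a (0.61) and Havcr2 with Cd200 (0.46) were below 1, as was Lag3 with Btla (0.34, 4 joint cells).

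In CD4 cells 12 pairs reached 5 expected cells, 7 with an odds ratio above 1, and Lag3 with Tigit had the highest (8.996, from 33 joint cells against 9.92 expected). In Foxp3-positive cells 16 of 23 pairs were above 1 with a median of 1.70. There the highest were Pdcd1 with Tigit (5.11, 223 cells against 174), Tigit with Ctla4 (3.57) and Ctla4 with Entpd1 (3.03), while Pdcd1 with Entpd1 was at 0.94, against 4.83 in CD8 cells; that difference was not tested.

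**Figure D4:**
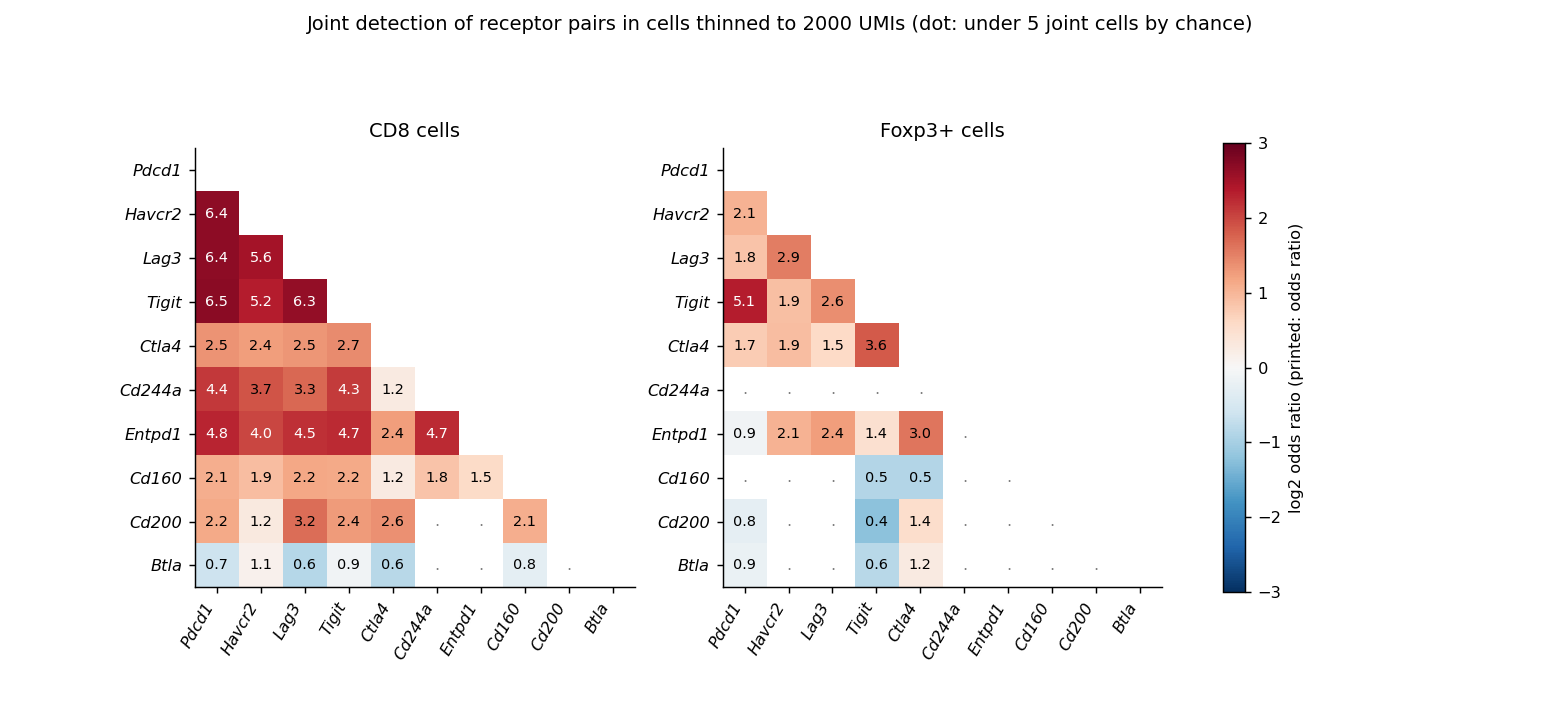
Odds ratio for finding 2 of the genes in the same cell (printed in each square; colour gives its log2, red above 1 and blue below) in CD8 and Foxp3-positive cells thinned to 2000 UMIs, stratified by mouse; a dot marks pairs with under 5 joint cells expected. In CD8 cells Pdcd1, Havcr2, Lag3 and Tigit form the darkest block (5.16 to 6.50) and every undotted pair below 1 includes Btla; in Foxp3-positive cells Pdcd1 with Tigit (5.11) is the highest undotted pair.

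For each receptor in at least 2% of thinned CD8 cells, genes outside the 10 members were ranked by the same odds ratio over 5097 cells, out of 4756 genes compared. Outside the members Pdcd1 was closest to Lgals1 (7.48), Rgs16 (6.75) and Anxa2 (6.29). Lgals1 was among the closest 3 for Havcr2, Lag3, Cd244a, Cd160 and Entpd1 as well. Tigit was closest to Serpina3g (5.53) and to the chemokine gene Ccl5 (5.20), and Cd244a to Ccl5 (13.6). Ctla4 had weaker neighbours, Adam8 (3.38) and Tnfrsf4 (2.58), and Cd160 was alone in having the chemokine gene Xcl1 (2.98) among its closest 3. These odds ratios rest on cells that share depth, mouse and cell state, and no further reading is given to the ranks.

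Within the 1833 CD8 cells that held Pdcd1, receptors were compared between cells with and without Tcf7, which encodes TCF-1, the factor that marks stem-like or progenitor exhausted cells. The 546 Tcf7-positive cells were lower in 6 of 8 members that were tested and not set by the gate, namely Havcr2, Lag3, Tigit, Ctla4, Cd244a and Entpd1, and none was called higher. Havcr2, Entpd1 and Cd244a fell as low as 12.6, 15.1 and 5.04 CPM in a Tcf7-positive sum. They reached the level of the count filter in all 8 mice only in Tcf7-negative cells, where they are high. Their part of the count is therefore a description. In this comparison 10.4% of 6274 genes were called, 5.74% higher and 4.69% lower. Entpd1 showed the largest difference, at 26.1 ± 10.9 CPM in Tcf7-positive and 77.9 ± 9.25 CPM in Tcf7-negative cells, without overlap (log2 ratio -1.58 ± 0.18, adjusted p = 4.24e-06). Havcr2 was at 59.2, 78.2, 79.2 and 147 CPM in the Tcf7-positive cells of LR mice 1 to 4 and at 109, 12.6, 65.7 and 57.2 CPM in those of PBS mice 6 to 9. In Tcf7-negative cells it was at 193, 184, 169 and 238 CPM and at 168, 128, 190.1 and 193 CPM, higher in each mouse (log2 ratio -1.29 ± 0.16, adjusted p = 1.15e-05). Lag3 (-1.04 ± 0.13), Cd244a (-0.97 ± 0.20) and Tigit (-0.57 ± 0.09) were lower in all 8 mice. Ctla4 was lower in 7 (-0.38 ± 0.11, adjusted p = 0.0365), a call that was lost with DESeq2 and without any of LR mice 1 and 2 or PBS mice 6, 7 and 9 (adjusted p 0.0804 to 0.104). Cd160 (0.31 ± 0.12, adjusted p = 0.115) and Cd200 (0.34 ± 0.24) had positive values that did not pass; Cd160 passed without PBS mouse 6 (0.38, adjusted p = 0.0466). Median depth was 4412.5 UMIs in Tcf7-positive and 6063 in Tcf7-negative cells.

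Genes of the exhaustion factor list moved in both directions, 4 higher, of which Tcf7 itself defines the gate, and 5 lower of 16. Id3 (3.64 ± 0.26) and Bach2 (1.96 ± 0.20) were among the higher ones. In Tcf7-negative cells they averaged 3.09 and 8.10 CPM, below the level of the count filter. They entered through Tcf7-positive cells, where they are high, so their ratios are a description. Slamf6, another marker of progenitor exhausted cells, was higher (1.88 ± 0.20), and Cd200r1, the receptor for CD200, lower (-1.21 ± 0.15).

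Xcl1, a chemokine gene that attracts cross-presenting dendritic cells, split the same Pdcd1-positive CD8 cells in another way. The 416 Xcl1-positive cells were lower in 5 members (Havcr2, Tigit, Ctla4, Cd244a and Entpd1) and higher in 2 (Cd160 and Cd200) of 8 read, where 32.5% of 6465 genes were called (17.7% higher, 14.8% lower). Cd200 was at 42.0, 51.4, 11.5 and 30.2 CPM in the Xcl1-positive cells of LR mice 1 to 4 and at 23.7, 24.6, 25.5 and 33.9 CPM in those of PBS mice 6 to 9. In Xcl1-negative cells Cd200 was at 4.17, 9.96, 24.9 and 11.5 CPM and at 25.2, 20.3, 6.60 and 4.19 CPM. It was higher with Xcl1 in 6 of 8 mice, from 129 and 102 UMIs (log2 ratio 1.39 ± 0.32, adjusted p = 0.00172). Cd200 reached the level of the count filter in most mice only in Xcl1-positive cells, where it is high, so its part of the count is a description. Cd160 was higher in 7 of 8 mice, at 164 ± 53.7 against 89.9 ± 30.4 CPM (0.80 ± 0.15, adjusted p = 0.000201). Cd244a (-0.995 ± 0.171), Entpd1 (-0.97 ± 0.15), Ctla4 (-0.82 ± 0.09), Havcr2 (-0.41 ± 0.08) and Tigit (-0.32 ± 0.07) were lower in all 8 mice. Cd244a reached the level of the count filter in all 8 mice only in Xcl1-negative cells, where it is high, so its part of the count is a description. Lag3 was at 318 ± 85.6 against 312 ± 68.5 CPM (0.03 ± 0.10, adjusted p = 0.853). The Xcl1-positive cells were deeper, with a median of 7723 against 5037 UMIs, and the part of depth in these differences was not tested.

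Cycling cells were compared through Mki67, a proliferation marker, in the whole CD8 gate (644 against 5386 cells; median depth 7760.0 UMIs in the Mki67-positive ones). Pdcd1, Havcr2, Lag3 and Entpd1 were higher, 4 of 9 tested members, in a comparison that called 50.6% of 7954 genes (26.4% higher, 24.2% lower). Pdcd1 was at 496 ± 79.9 against 312 ± 164 CPM and higher in all 8 mice (log2 ratio 0.80 ± 0.22, adjusted p = 0.00575; 0.50 without PBS mouse 7). Havcr2 (0.72 ± 0.20), Entpd1 (0.69 ± 0.21) and Lag3 (0.53 ± 0.19, adjusted p = 0.0268) followed; the Lag3 call was lost with DESeq2 (adjusted p = 0.0786) and without LR mouse 1 or any of PBS mice 7, 8 and 9 (adjusted p 0.0606 to 0.106). Without mouse as a block only 1 of these 4 calls remained, Entpd1. That gene reached the level of the count filter in all 8 mice only in Mki67-positive cells, where it is high, so its part of the count is a description. Tigit (0.39 ± 0.20), Ctla4 (0.08 ± 0.13), Cd244a (0.17 ± 0.24), Cd160 (0.26 ± 0.12) and Cd200 (0.26 ± 0.25) were not called; Cd160 passed with 2 other settings and without LR mouse 3 or LR mouse 4, and Tigit without the filter on low counts.

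**Figure D5:**
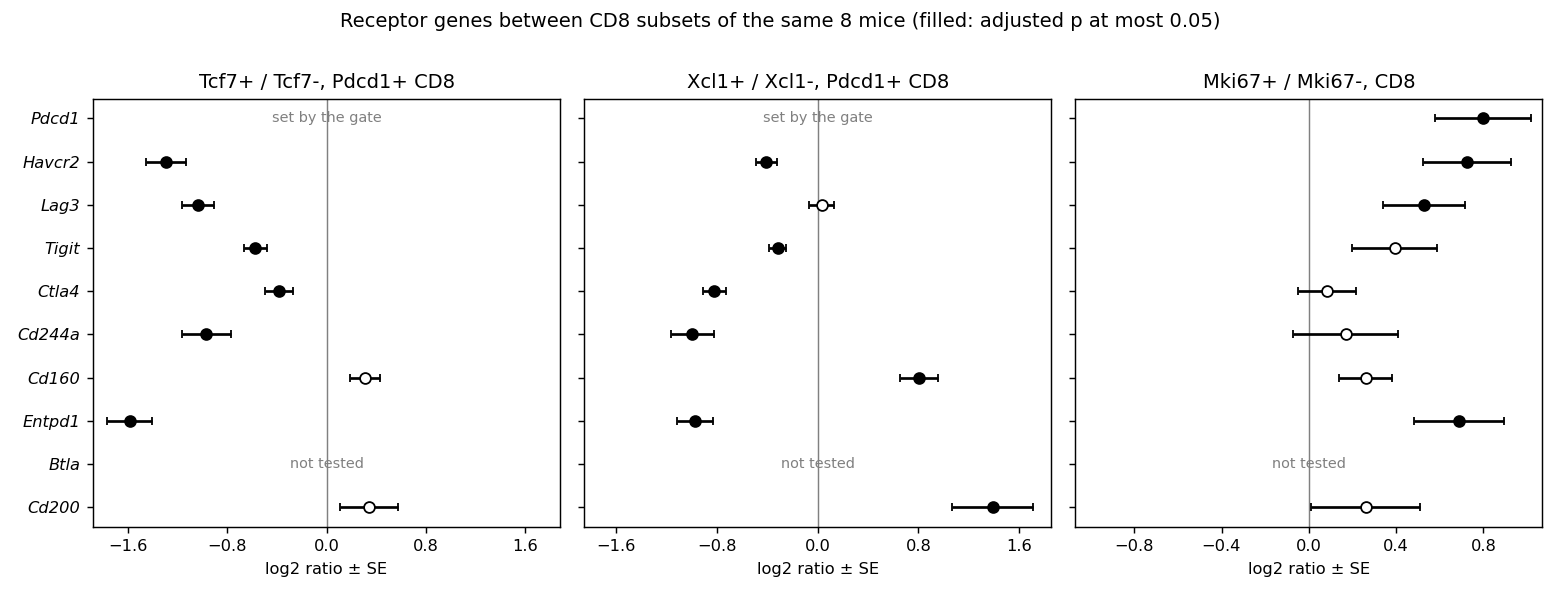
Log2 ratio ± SE (horizontal axis, a separate scale per panel) of the 10 genes (vertical axis) between Tcf7-positive and Tcf7-negative and between Xcl1-positive and Xcl1-negative cells, both among Pdcd1-positive CD8 cells, and between Mki67-positive and Mki67-negative CD8 cells; filled points have an adjusted p of 0.05 or less. Havcr2, Tigit, Ctla4, Cd244a and Entpd1 lie left of 0 in the Tcf7 and Xcl1 panels, and Lag3 only in the Tcf7 panel (-1.04). Cd160 (0.80) and Cd200 (1.39) lie right of 0 in the Xcl1 panel, and Cd200 met the count filter mainly through Xcl1-positive cells.

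No receptor passed the test between LR and PBS mice in any gate. In CD8 cells 0 of 10 members and 0 of 9945 genes (0%) were called by edgeR; 741 genes, 2 of them members, had an unadjusted p below 0.05, and DESeq2 called 3 genes, none of them a member. The fitted log2 ratios of LR to PBS were positive for 8 of 10 members, from 0.41 to 0.90, beside a median of 0.00 over all genes, and slightly negative for Cd160 (-0.07 ± 0.24) and Btla (-0.09 ± 0.28). Lag3 had the largest ratio: 144, 246, 229 and 361 CPM in LR mice 1 to 4, and 212, 46.3, 135 and 127 CPM in PBS mice 6 to 9 (log2 ratio 0.90 ± 0.38, adjusted p = 0.617). Tigit was at 297, 363, 299 and 657 CPM in LR and at 329, 91.3, 252 and 236 CPM in PBS mice (0.82 ± 0.35, adjusted p = 0.617). Havcr2 was at 70.1, 117, 100.4 and 187 CPM in LR and at 111, 16.4, 69.99 and 62.2 CPM in PBS mice (log2 ratio 0.88 ± 0.45). For each of the 10 genes the groups overlapped, while 3.06% of all genes tested separated them (1.54% with LR higher). PBS mouse 6 lay within the LR range for Lag3, Tigit and Havcr2, PBS mouse 7 was the lowest of all 8 mice and LR mouse 4 the highest.

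The same comparison was made within the CD8 cells that held Pdcd1. There 0 of 9 members read and 1 of 8796 genes (0.0114%) were called, Gzmb, encoding granzyme B, which was higher in LR (log2 ratio 0.76 ± 0.09, adjusted p = 0.00615); 432 genes had an unadjusted p below 0.05 and DESeq2 called 3. Lag3 was at 334, 327, 321 and 437 CPM in LR mice 1 to 4 and at 287, 208, 282 and 299.6 CPM in PBS mice 6 to 9, so every LR mouse lay above every PBS mouse. Its log2 ratio was 0.39 ± 0.13 with an unadjusted p of 0.00965 and an adjusted p of 0.959, and 2.80% of all genes separated the groups in this gate (1.66% with LR higher). Lag3 was the only member without overlap. Entpd1 (0.28 ± 0.13), Havcr2 (0.35 ± 0.20) and Tigit (0.31 ± 0.18) had positive and Cd160 (-0.35 ± 0.17) a negative value, all with an adjusted p of 0.959.

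In Foxp3-positive cells 0 of 6 tested members were called, beside 2 of 6828 genes (0.0293%), Cd69 and Ly6c2, both lower in LR; 373 genes, 3 of them members, had an unadjusted p below 0.05 and DESeq2 called 3 genes. No member separated the groups, as 3.35% of all genes did (1.38% with LR higher). Lag3 was at 255, 213, 217 and 171 CPM in LR and at 124, 196, 170.4 and 61.2 CPM in PBS mice (log2 ratio 0.54 ± 0.23, adjusted p = 0.891). Havcr2 (0.44 ± 0.20), Tigit (0.33 ± 0.15), Pdcd1 (0.26 ± 0.18) and Ctla4 (0.21 ± 0.16) were positive and Entpd1 negative (-0.25 ± 0.23). At matched depth, the mean number of receptors per Foxp3-positive cell was 2.35, 2.47, 2.46 and 2.82 in LR mice 1 to 4 and 2.29, 1.92, 2.33 and 1.88 in PBS mice 6 to 9. These groups did not overlap (2.52 ± 0.20 against 2.11 ± 0.24; two-sided exact permutation p = 0.0286, the smallest that 4 mice against 4 can give), but over the 3 gates the adjusted p was 0.0857. In CD8 cells the same mean was 1.74 ± 0.62 against 1.08 ± 0.61 (exact permutation p = 0.229) and in CD4 cells 0.905 ± 0.226 against 0.624 ± 0.215 (exact permutation p = 0.114, adjusted 0.171). Of 30 shares of cells, 10 receptors in 3 gates, 0 passed after adjustment (smallest adjusted p 0.571), and only Lag3 in CD4 cells separated the groups, with 8.74 ± 1.39% of cells in the 4 LR mice against 3.06 ± 1.17% (exact permutation p = 0.0286). With stricter gates this Lag3 difference was 2.31 percentage points, and at 3000 UMIs it was 10.3, against 5.68.

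In the CD4 gate 0 of 4 tested members and 0 of 5510 genes (0%) were called by edgeR; 324 genes, 3 of them members, had an unadjusted p below 0.05, and DESeq2 called 1 gene. Pdcd1 had a log2 ratio of 1.13 ± 0.41, Tigit 1.06 ± 0.44, Lag3 0.96 ± 0.35 and Ctla4 0.56 ± 0.36 (adjusted p 0.812 to 0.927), and the groups overlapped for all 4, while 2.85% of all genes separated them (1.54% with LR higher). Without the filter on low counts, Pdcd1, Tigit and Lag3 were called, together with 85 genes in all. Cd200, which the filter removed with 98 UMIs in the gate, was at 29.7, 26.1, 21.4 and 25.6 CPM in LR and at 9.71, 16.97, 11.2 and 16.6 CPM in PBS mice, without overlap, and was not tested. CD8 markers in this gate summed to 328 to 701 CPM in LR and 161 to 419.8 CPM in PBS mice, and their part in these values was not tested. Whether the LR difference itself differed between Foxp3-positive and CD8 cells was tested as an interaction, with the 128 cells that met both rules left out. There 0 of 9269 genes (0%) were called by edgeR, 517 had an unadjusted p below 0.05, and DESeq2 called 3. For the 6 members also tested within Foxp3-positive cells (Pdcd1, Havcr2, Lag3, Tigit, Ctla4 and Entpd1) the interaction was negative, from -1.30 ± 0.47 for Entpd1 to -0.55 ± 0.26 for Ctla4, with adjusted p from 0.770 to 0.939. Cd160 had the value furthest from 0 of the 10 members, -2.98 ± 0.63 (unadjusted p 0.000271, adjusted p = 0.279). In the Foxp3-positive cells outside the CD8 gate, Cd160 was at 0, 0.962, 2.03 and 1.18 CPM in LR mice 1 to 4. PBS mice 6 to 9 had 22.4, 4.598, 6.90 and 13.7 CPM there, without overlap, with at most 1 UMI in any LR mouse. The share of all genes without overlap was not computed for this reduced gate. In the whole Foxp3-positive gate the groups overlapped for Cd160, at 1.79 to 13.4 CPM in LR and 3.84 to 29.9 CPM in PBS mice. Cd160 passed the count filter through CD8 cells, and without that filter its interaction was called (-2.94, adjusted p = 0.00951). Cd244a (0.08 ± 0.93), Btla (0.03 ± 0.52) and Cd200 (-0.30 ± 0.61) each had an adjusted p of 1.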

How the data were processed

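T cells sorted from tumours of 8 mice were measured by droplet 5' single-cell RNA sequencing, and the authors deposited 1 matrix of raw UMI counts per gene, with hashtag antibody counts, made with Cell Ranger 4.0.0 on GRCm38 per the submitters' processing notes. For the annotation, the release is not given in the sources used here. All gene lists and the 10 members were chosen with earlier results of these data known.

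Cells were required to show 500 genes or more and no more than 10% of counts from mitochondrial genes, which left 14474 barcodes. Hashtags were called by a 2-component mixture per antibody on log10 counts: 2570 barcodes (17.8%) had 2 or more and 679 none. The feature list named 9 hashtags, and a further LR mouse hashtag was never the highest in any barcode and was not used. Scrublet (expected rate 0.1) marked 1971 barcodes (13.6%), which were left out. Each mouse gave 2627575 to 9294975 UMIs. No columns of other samples were present (0).

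Counts were summed per mouse and gate, and genes passing filterByExpr were tested with edgeR 4.0.16 (R 4.3.3, limma 3.58.1; TMM scaling, quasi-likelihood test, Benjamini-Hochberg adjustment over all genes tested, threshold 0.05). Contrasts of gates within mice had the mouse as a block, because both gates come from the same animal. Mouse numbers do not pair LR with PBS mice, which have different numbers.

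Shares and joint detection were read after thinning cells to 2000 UMIs and compared over mice by exact permutation (smallest p 0.0286 for 4 against 4 and 0.0078125 for 8 sign flips). Odds ratios are Mantel-Haenszel estimates over mice, and those of single mice had a small constant added to every count. The genes closest to a member were the 3 outside the 10 members with the highest odds ratio, kept to genes in 5% to 90% of cells; the upper limit was set after seeing that near-universal genes gave infinite values. Named pathway genes were the 3 called genes per list and gate contrast with the largest log2 ratio that moved the same way in all mice. Python 3.11.15, scanpy 1.11.5, scikit-learn 1.9.0 and scipy 1.17.1 were used. The count tests were tested on simulated data. Alternatives were DESeq2 1.42.0, library totals, no count filter, other doublet, hashtag and gate rules, no mouse block, other thinning depths and leaving out each mouse. The stricter gates needed a Cd3d, Cd3e or Cd3g UMI, CD8 cells without Foxp3, and CD4 cells without Cd8a or Cd8b1. Foxp3-positive cells that met the CD8 rule stayed in the Foxp3-positive gate there, also where the main test left them out. Values that rest on some marker genes are not reported here.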

Additional observations from a re-analysis of the deposited data

Results flagged for a closer look

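In 6 of 54 groups of 4 mice with at least 50 UMIs of a gene, 1 mouse lay far from the other 3, by the gap to its nearest neighbour over the range of the group. Chance gives about 1 such group in 20. Pdcd1 in CD8 cells was at 254 CPM in LR mouse 1, with the other LR mice at 462 to 499 CPM. In Foxp3-positive cells LR mouse 4 had Pdcd1 at 453 CPM (others 312 to 333) and Tigit at 1031 CPM (others 597 to 669). The same mouse had Tigit at 567 CPM in CD4 cells, with the others at 155 to 189 CPM. In CD8 cells Btla was at 10.3 CPM in LR mouse 1 (46 UMIs; others 7.50 to 7.97) and Cd200 at 18.5 CPM in PBS mouse 6 (38 UMIs; others 7.40 to 7.98).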

How the results depend on the processing

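Over all alternatives other than leaving out a mouse, 235 of 251 values of called members kept direction and call, and the other 16 lost the call; over the settings that left out 1 mouse, 273 of 288 kept both and 15 lost the call. No called member changed sign. The mouse block mattered most: with no replicate block, calls were lost for Tigit (0.75) and Cd200 (-0.58) in CD8 against CD4 cells, Havcr2 in Foxp3-positive against CD8 cells (-0.82), Havcr2 (-0.39) and Tigit (-0.34) by Xcl1, and Ctla4 (-0.40) by Tcf7, and by Mki67 1 member stayed called of 4. DESeq2 called 1145 genes by Xcl1 (edgeR 2103) and 418 by Tcf7 (edgeR 654; 990 without the count filter). Between LR and PBS mice DESeq2 called 3 genes in CD8, 1 in CD4, 3 in Pdcd1-positive CD8 cells and 3 for the interaction. Without the count filter 85 genes and 3 members were called in CD4 cells, 79 genes in Foxp3-positive cells, 23 in Pdcd1-positive CD8 cells, and 118 genes and 4 members (Havcr2, Tigit, Cd160 and Entpd1) for the interaction; the cause was not tested. Foxp3-positive cells gave 0 genes with doublet-marked cells kept and 1 with the other hashtag rule. The interaction gave 2 with stricter gates, in which the cells that met both rules were back in the Foxp3-positive gate. Leaving out 1 mouse gave 0 to 3 genes in CD4, 0 to 5 in Foxp3-positive and 0 to 2 in Pdcd1-positive CD8 cells, and 0 to 7 for the interaction.

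Signs changed only for members that were not called. With library totals Pdcd1 and Lag3 in Foxp3-positive against CD8 cells were 0.058 and 0.0073, and without the count filter Lag3 by Xcl1 was -0.014. When 1 mouse was left out the log2 values ran from -0.18 to 0.049 (Pdcd1), -0.41 to 0.11 (Lag3) and -0.035 to 0.32 (Cd200) in Foxp3-positive against CD8 cells. Between LR and PBS they ran from -0.29 to 0.080 (Cd160) and -0.26 to 0.074 (Btla) in CD8 cells, -0.012 to 0.77 (Ctla4) in CD4 cells, -0.18 to 0.24 (Cd244a) and -0.14 to 0.30 (Cd200) in Pdcd1-positive CD8 cells, and -0.97 to 0.036 (Lag3), -0.63 to 3.84 (Cd244a), -0.17 to 0.36 (Btla) and -0.80 to 0.077 (Cd200) for the interaction. Interaction signs also changed for Cd244a with DESeq2 (-0.035), doublet-marked cells kept (-0.47), the other hashtag rule (-0.82) and stricter gates (-0.60). In those stricter gates the cells that met both rules were in the Foxp3-positive gate. For Btla the interaction sign changed with library totals (-0.048), doublet-marked cells kept (-0.043), the other hashtag rule (-0.15) and no replicate block (-0.13). Lag3 by Xcl1 ran from -0.072 to 0.093 and Ctla4 by Mki67 from -0.090 to 0.13. Of the shares of cells, in percentage points of LR minus PBS, Cd160 in CD8 cells was -0.19 at 1000 and -0.18 at 3000 UMIs, Havcr2 and Entpd1 in Foxp3-positive cells were -0.10 and 2.13 at 1000 UMIs, and Entpd1 ran from -2.59 to 0.18 without 1 mouse. Between LR and PBS mice Havcr2, Cd244a, Cd160, Entpd1, Btla and Cd200 were not tested in CD4 cells, nor Cd244a, Cd160, Btla and Cd200 in Foxp3-positive cells, at this depth; Btla was not tested by Tcf7, Xcl1 or Mki67.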

Other observations

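Between Foxp3-positive and CD4 cells the partners of the receptors differed as well, in a comparison where 49% of genes were called. Of 10 activating counterparts 6 were higher and 3 lower in Foxp3-positive cells, led by Tnfrsf9 (log2 ratio 2.95 ± 0.17; 809 ± 77.1 against 107 ± 56.5 CPM) and Tnfrsf4 (2.92 ± 0.24). Of 7 tested ligands and binding partners 4 were higher and 0 lower. H2-Ab1, the MHC class II gene whose product LAG-3 binds, was at 88.5 ± 75.4 against 7.14 ± 9.56 CPM. The PD-1 ligand gene Pdcd1lg2 was at 50.8 ± 10.5 against 16.95 ± 11.4 CPM. Both averaged below the level of the count filter in CD4 cells and entered mainly through Foxp3-positive cells, where they are high, so their part of the count is a description. Myeloid marker sums were 161 to 419 CPM and B cell marker sums 13.5 to 72.0 CPM in the Foxp3-positive gate. The part of such cells in the H2-Ab1 value was not tested. Of 15 exhaustion factors 6 were higher and 4 lower, with Ikzf2, a factor of regulatory T cells, higher (2.78 ± 0.18) and Tcf7 (-3.48 ± 0.21) and Bach2 (-3.22 ± 0.25) lower. Bach2 averaged 14.6 CPM in Foxp3-positive cells and passed the count filter mainly through CD4 cells, so its ratio is a description.

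In Mki67-positive CD8 cells the exhaustion factor list held 6 higher and 5 lower genes of 17. Bach2 (-2.21 ± 0.18), Tcf7 (-1.99 ± 0.13) and Id3 (-1.65 ± 0.21) were lower, and the inhibitory receptor gene Vsir, encoding VISTA, was also lower (-0.9997 ± 0.0822; 67.5 ± 12.3 against 129 ± 19.5 CPM).

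The genes called between LR and PBS mice, named after their values were seen, were no members of any list. In Foxp3-positive cells Cd69, an early activation marker, averaged 151 CPM in LR and 314 CPM in PBS mice (log2 ratio -1.03 ± 0.16, edgeR adjusted p = 0.0200), and Ly6c2 averaged 24.2 and 77.9 CPM (-1.81 ± 0.25, edgeR adjusted p = 0.0132). In Pdcd1-positive CD8 cells Gzmb averaged 999.8 CPM in LR and 587 CPM in PBS mice. The 4 mice of each group did not overlap for these 3 genes. In every pathway list and gate 0 genes were called between LR and PBS mice by edgeR.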
